A study of Mus musculus with 6 samples.

Results

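Genes of coagulation and fibrinolysis were followed in RNA-seq of mouse RPE-choroid, the retinal pigment epithelium (RPE) together with the vascular choroid beneath it. The 9 members were named by their role and looked up by symbol among the 15663 genes with values, and all 9 were found. They are F3 and Tfpi, which start the cascade and brake that start, Thbd and Procr of the protein C system, and Plat, Plau, Plaur, Serpine2 and Anxa2 of the plasminogen system. The tissue came from 3 control mice and 3 mice with subretinal fibrosis (SRF), with 1 library per mouse. All were male C57BL/6J mice supplied at 8 to 10 weeks of age, and their age at collection is not given in the sources used here. Control mice were untreated, and SRF mice received 4 laser burns in each eye, a repeat burn of every lesion 10 days later, and tissue collection 20 days after that. Whole RPE-choroid was sequenced, so untouched tissue around the burns is part of every SRF library.

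In vertebrates, clotting outside the vessel begins when tissue factor, the product of F3, binds factor VII and activates factor X, which leads to thrombin and fibrin. Tissue factor pathway inhibitor shuts off this step, while thrombomodulin and the endothelial protein C receptor turn thrombin towards the activation of protein C. Fibrin is later removed by plasmin, which is made from plasminogen by the tissue and urokinase activators, and serpins hold these proteases in check.

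Of the 8 members with enough counts to be tested, F3 and Serpine2 separated the groups, in opposite directions. The groups were likewise separate in 13.1% of all tested genes. F3 mRNA averaged 209 CPM (counts scaled to a common library size) in control mice and 139 CPM in SRF mice, whereas Serpine2 averaged 912 and 1452 CPM. Neither passed edgeR's quasi-likelihood test after adjustment, which no gene passed. Both passed DESeq2 on the same counts, which called 0.803% of all tested genes higher and 0.334% lower. For Tfpi, the inhibitor of tissue factor, and for Thbd, Procr, Plaur and Anxa2, the values of the groups overlapped. Plat was higher on average in SRF mice with 1 SRF mouse at the control level, and Plau, higher in all SRF mice, was close to the detection floor and was not tested.

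The start sites of the members carry different sequence features, shown here for F3 and Serpine2 because their differences had opposite signs and for the other genes that share the AP-1 letters with F3. RefSeq windows on GRCm38.p6, with 250 bases before and 50 after a start, were found for 6 members, F3, Tfpi (a pair of windows), Procr, Plaur, Serpine2 and Anxa2, and those of Thbd, Plat and Plau were not analysed here. Both strands were searched for the AP-1 letters TGANTCA, the GC box GGGCGG, the Egr letters GCGNGGGCG, the TATA letters TATAAA, an NF-kB motif and the E-box CACGTG. The 250 bases upstream of the start are given 5′ to 3′ in the direction of transcription, for F3 (chr3:121723287-121723536, plus strand) and Serpine2 (chr1:79858666-79858915, minus strand), with AP-1 and GC box matches in capitals.
F3: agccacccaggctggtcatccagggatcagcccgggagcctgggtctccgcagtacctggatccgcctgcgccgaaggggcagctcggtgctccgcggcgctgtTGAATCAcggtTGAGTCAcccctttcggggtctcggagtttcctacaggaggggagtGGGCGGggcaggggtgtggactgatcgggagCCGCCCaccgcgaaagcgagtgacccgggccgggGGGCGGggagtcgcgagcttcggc
Serpine2: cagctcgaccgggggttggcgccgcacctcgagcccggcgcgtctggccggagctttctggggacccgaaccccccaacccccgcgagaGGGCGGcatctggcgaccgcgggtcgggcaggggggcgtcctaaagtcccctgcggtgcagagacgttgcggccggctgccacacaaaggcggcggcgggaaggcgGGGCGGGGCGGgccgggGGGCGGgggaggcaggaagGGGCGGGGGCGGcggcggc

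F3 held 2 AP-1 matches, which begin 146 and 135 bases before its start, and 3 GC boxes. Serpine2 held 6 GC boxes and no AP-1 match. An AP-1 match was also present in the windows of Procr (chr2:155751053-155751079), Plaur (chr7:24462404-24462430) and Anxa2 (chr9:69453578-69453604), all on the plus strand, shown with 10 bases on either side and the match in capitals.
Procr: cccaccccccTGACTCAgcggcgacct
Plaur: cccctggagcTGACTCActctttagca
Anxa2: ccaagttggaTGAGTCAcccagcaggg

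Among all 32851 RefSeq promoter windows of this length, 7.81% held the AP-1 letters, against 4 of the 6 members with a window. The 4 genes with an AP-1 match did not share a direction, since F3 was lower in SRF mice and the groups overlapped for Procr, Plaur and Anxa2. GC boxes were found in 35.7% of all windows and in 5 of the 6 members, with Procr as the exception. The windows of F3 and Serpine2 were 70.3% and 77.7% G or C, compared with a median of 52.7% over all windows. The Egr letters, present in 5.55% of windows, were found once in Serpine2 and once in Plaur, overlapping GC boxes in both. The TATA letters (13.6% of windows) were found once each in F3, Tfpi and Anxa2. In Anxa2 they lay 17 bases before the start, in the direction of transcription. The matches of F3, 43 bases after its start, and of Tfpi, 127 bases before, were reverse complements. The E-box (7.15%) was found once in Tfpi and the NF-kB motif (0.411%) in none of the members. These matches describe the letters of the windows, and binding of any factor was not measured.

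The 6 libraries held between 13667310 and 24356023 counts on listed genes, and 3 counts, taken as the floor, equal 0.125 to 0.223 CPM. CPM values are counts scaled by edgeR's TMM factors, whose range was 0.978 to 1.03. The tests covered the 13454 genes that exceeded 50 counts in 2 or more libraries, and called means an adjusted p under 0.05 together with a log2 fold change of 0.5 or more in either direction. The RPE markers Rpe65, Best1 and Rgr and the endothelial markers Pecam1 and Cdh5 were present in every library, as the tissue label would have it. A pair of libraries stood apart in neural retina RNA, since the mean log2 CPM of 12 photoreceptor genes was 9.01 in control mouse 1 and 8.93 in SRF mouse 3 and lay between 4.89 and 6.17 in the other 4. As each group holds 1 such library, the member values are also given below for the 4 other libraries and for this pair.

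After Benjamini-Hochberg adjustment of the p-values from edgeR's quasi-likelihood test, 0% of the 13454 genes were called and none of the members. At an unadjusted p under 0.05, edgeR found 943 genes (7.01%) and 3 of the 8 tested members, F3 lower and Plat and Serpine2 higher in SRF mice. DESeq2 called 108 genes higher (0.803%) and 45 genes lower (0.334%), and among the members it called Serpine2 higher and F3 lower. Both genes also appear among those that the study listed as changed from these same counts, so these calls are not independent of that list. The CPM values of the groups did not overlap in 13.1% of all tested genes and in 2 of the 8 tested members, F3 and Serpine2. Over the 8 tested members, 6 log2 fold changes were above 0 and 2 below, with a median of 0.11 against 0.00 over all genes.

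**Figure D1:**
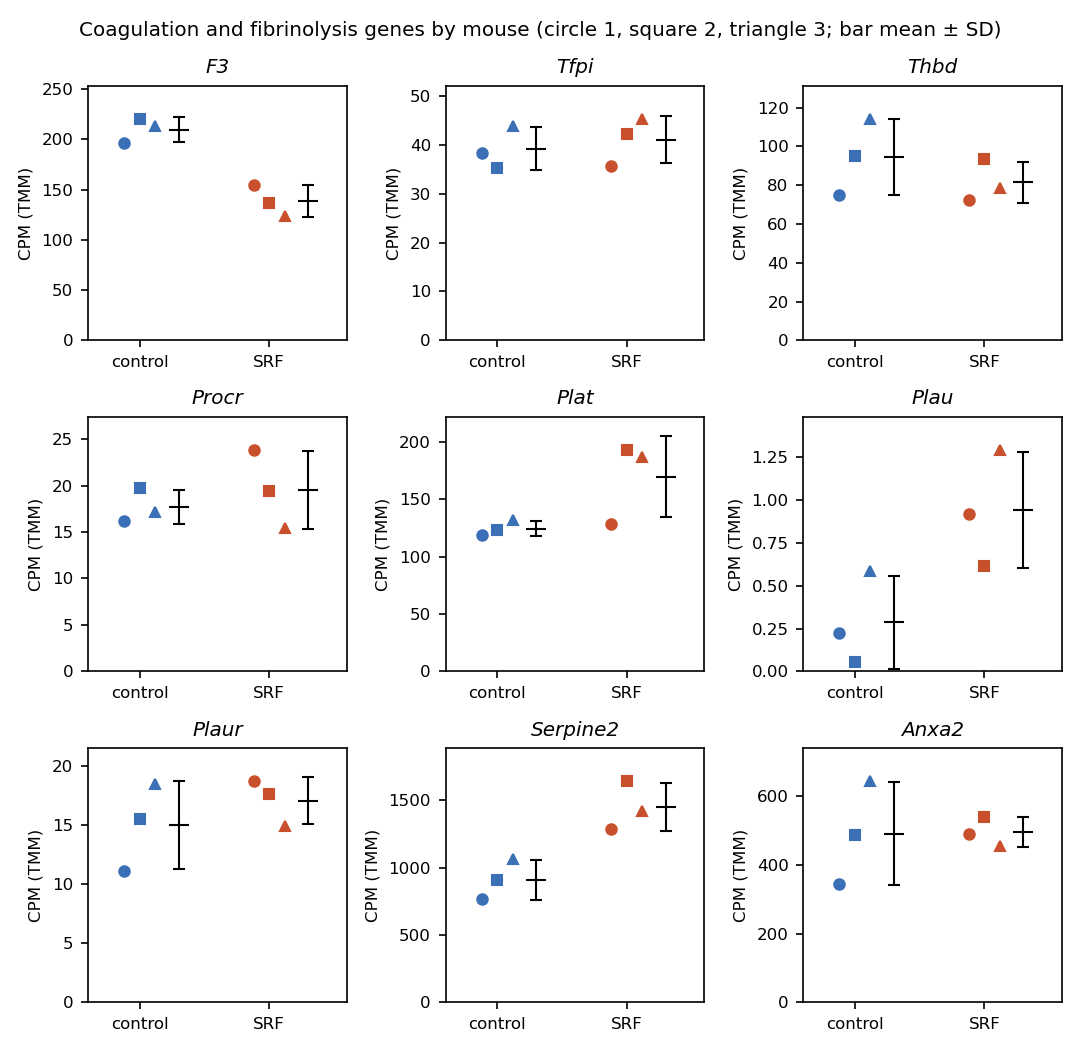
TMM-normalized CPM of each of the 9 members (y axis, from 0) in 3 control mice (blue) and 3 SRF mice (orange), with the mean and SD of each group as a black bar. The F3 points of SRF mice all lie below those of control mice, the Serpine2 points all lie above, and the groups overlap for Tfpi, Thbd, Procr, Plat, Plaur and Anxa2.

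F3 encodes tissue factor, the membrane receptor of factor VII and the trigger of clotting (ENSMUSG00000028128, GRCm38 chr3:121723537-121735048, plus strand). Control mice 1, 2 and 3 had 196, 220 and 213 CPM, and SRF mice 1, 2 and 3 had 155, 137 and 124 CPM. All SRF mice lay below all control mice, and the gap between the groups was wider than the spread within either. The means were 209 ± 12.3 and 139 ± 15.8 CPM (SD, n = 3 each), a ratio of 0.662. By edgeR (quasi-likelihood test, Benjamini-Hochberg adjusted), the log2 fold change was -0.59 (SE 0.12, 95% interval -0.89 to -0.30), with an unadjusted p of 0.00197 and an adjusted p of 0.298. DESeq2 (Benjamini-Hochberg) gave -0.60 and an adjusted p of 0.00347. F3 was thus called by DESeq2 and not by edgeR. The DESeq2 call was lost without control mouse 2 and without SRF mouse 2, each with an adjusted p of 0.11 by DESeq2 (Benjamini-Hochberg), at log2 fold changes of -0.56 and -0.59. Over the 27 alternative fits by edgeR, DESeq2 or limma, the adjusted p of F3 ranged from 1.61e-04 to 1, and all 27 fold changes were below 0. An exact permutation test of the 3 against 3 values gave p = 0.1, two-sided, which is the smallest that this design allows.

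The difference in F3 was of like size on both sides of the photoreceptor split. In the 4 libraries with little photoreceptor RNA the log2 fold change was -0.57 (SE 0.13), with an adjusted p of 0.0839 by edgeR (quasi-likelihood test, Benjamini-Hochberg), and between control mouse 1 and SRF mouse 3, the pair rich in it, the log2 difference in CPM was -0.66. With the photoreceptor score as a covariate, DESeq2 (Benjamini-Hochberg) gave F3 an adjusted p of 1.61e-04.

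F3 is expressed in epithelia and perivascular cells in many tissues, and the RPE markers moved in the same direction here. Of 12 RPE markers, 11 were lower in SRF mice, 5 of them at an unadjusted p under 0.05 by edgeR and 3 called by DESeq2, with a median log2 fold change of -0.33. Their summed level ranged from 45731 to 54105 CPM in control mice and from 30730 to 40441 CPM in SRF mice, and Rpe65 and the other defining markers were above 0 throughout. Set against this sum, F3 stood at 3.82, 4.06 and 4.66 CPM per 1000 CPM of RPE markers in control mice 1, 2 and 3, while SRF mice 1, 2 and 3 had 3.84, 4.12 and 4.03, so that the groups overlapped. Most of that sum was Rgr (13990 to 27113 CPM per library) and Ttr (5238 to 11535 CPM). Their log2 fold changes were -0.69 and -0.29, so the summed comparison rests largely on these genes. With each of the 12 markers weighted alike, log2 F3 minus the mean log2 marker level was -2.44 ± 0.08 in control mice and -2.66 ± 0.05 in SRF mice (SD, n = 3 each), without overlap, a difference of -0.22 with an exact permutation p of 0.1. The mean log2 level of the 12 markers itself differed by -0.38, less than F3 did. In bulk tissue, fewer cells of a type and less RNA per cell cannot be told apart, and the part of the RPE markers in the F3 result was not tested.

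Genes of the immediate early class respond to tissue handling, and some of them encode AP-1 and Egr proteins. Of 11 tested, 10 were lower in SRF mice, 5 of them at an unadjusted p under 0.05 by edgeR. The median log2 fold change was -0.88, and summed levels overlapped, at 581 to 1308 CPM in control mice against 382 to 615 CPM in SRF mice. Among those for AP-1 and Egr proteins, the groups did not overlap for Fos (-1.32), Egr1 (-0.93) and Egr3 (-2.41). They overlapped for Jun (-0.30), Junb (-0.22), Atf3 (0.04) and Egr2 (-0.11). The part of the immediate early genes in the F3 result was not tested.

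The genes whose pattern over the 6 libraries was most like that of F3 were Podxl, Ciao1, Cycs, Itgav and Adora2b, each with a Pearson r of 0.99 in log2 CPM. Their log2 fold changes ranged from -0.83 for Adora2b, an adenosine receptor, to -0.19 for Podxl, a sialomucin. With 6 libraries such values are common, and the gene ranked 100 still had an r of 0.93. Among the members, Thbd was most like F3 (r = 0.46), and Plat was most opposite (r = -0.85). These correlations share the libraries and the difference between the groups, and are descriptions.

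Tfpi encodes tissue factor pathway inhibitor, which blocks activated factor X and the complex of tissue factor with activated factor VII (ENSMUSG00000027082, chr2:84432855-84476775, minus strand). Control mice 1, 2 and 3 had 38.2, 35.3 and 43.9 CPM, and SRF mice had 35.7, 42.2 and 45.2 CPM. The groups overlapped almost entirely. By edgeR (quasi-likelihood test, Benjamini-Hochberg adjusted) the log2 fold change was 0.07 (SE 0.14, 95% interval -0.27 to 0.41), with an adjusted p of 1. The interval leaves room for changes in either direction, and the sign turned in the 4 libraries with little photoreceptor RNA, at -0.03, against a log2 difference of 0.24 in the other pair.

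Set against its inhibitor within each mouse, F3 was lower in SRF mice. The ratio of F3 to Tfpi in the deposited FPKM, which scale fragments by transcript length and library size, was 6.2, 7.17 and 5.99 in control mice and 5.07, 3.89 and 3.38 in SRF mice. The groups did not overlap. The mean log2 ratio differed by -0.67 between the groups, with an exact permutation p of 0.1, two-sided. As Tfpi itself overlapped between the groups, this largely restates the F3 difference and is not an independent result. Leaving out each mouse gave differences between -0.83 and -0.53.

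**Figure D2:**
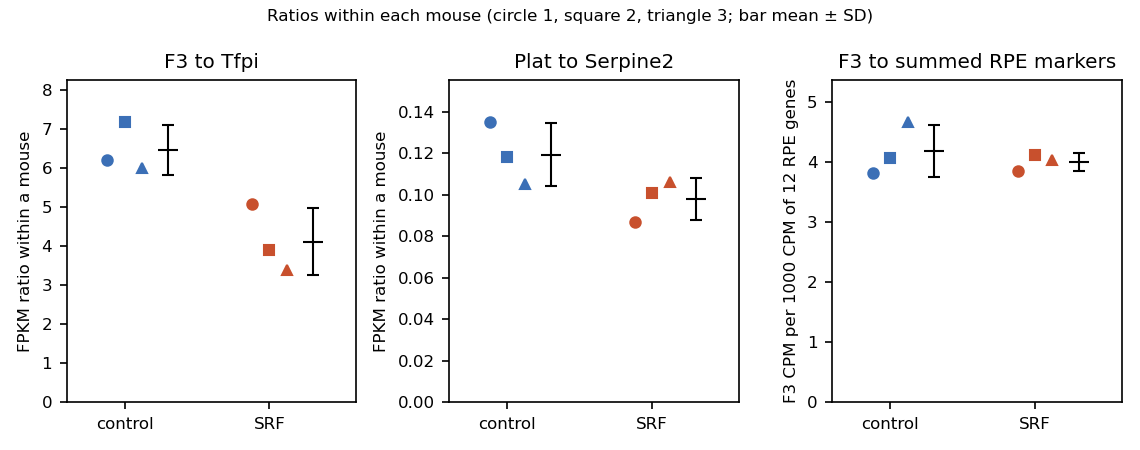
Ratio of F3 to Tfpi and of Plat to Serpine2 in FPKM, and F3 CPM per 1000 CPM of 12 summed RPE markers, within each control mouse (blue) and SRF mouse (orange), with mean and SD as a black bar and y axes from 0. The F3 to Tfpi ratio is lower in all SRF mice (3.38 to 5.07) than in all control mice (5.99 to 7.17), and the groups overlap in the other 2 panels. With the 12 RPE markers weighted alike, which is not drawn, F3 relative to them did not overlap between the groups.

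The protein C system was represented by its pair of membrane receptors. Thbd encodes thrombomodulin, which binds thrombin on the endothelium (ENSMUSG00000074743, chr2:148404466-148408188, minus strand). Its level was 74.8, 94.9 and 114 CPM in control mice 1, 2 and 3 and 72.6, 93.3 and 78.4 CPM in SRF mice. The groups overlapped, and control mouse 3 alone lay above the rest. The log2 fold change was -0.22 (SE 0.18, 95% interval -0.64 to 0.21), with an adjusted p of 0.947 by edgeR (quasi-likelihood test, Benjamini-Hochberg). In the 4 libraries with little photoreceptor RNA it was -0.34 (SE 0.16), and between the photoreceptor-rich pair the log2 difference was 0.07. Without control mouse 3 the log2 fold change was -0.06, and without control mouse 1 it was -0.36.

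Procr encodes the endothelial protein C receptor, which presents protein C to the thrombin and thrombomodulin complex (ENSMUSG00000027611, chr2:155751117-155755471, plus strand). Control mice had 16.2, 19.7 and 17.1 CPM and SRF mice 23.8, 19.4 and 15.4 CPM. The range of the SRF mice enclosed all control values. The log2 fold change was 0.15 (SE 0.19, 95% interval -0.31 to 0.60), with an adjusted p of 0.999 by edgeR (quasi-likelihood test, Benjamini-Hochberg), and without SRF mouse 1 the sign turned, at -0.02. The log2 fold change was 0.23 (SE 0.18) in the 4 libraries with little photoreceptor RNA, and the difference of the other pair was -0.07. The endothelium, on which both receptors are best known, is covered by a marker list. The 12 endothelial markers had a median log2 fold change of 0.03 and summed levels of 1979 to 2324 CPM in control mice and 1834 to 2434 CPM in SRF mice.

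Among the plasminogen activators, Plat carried nearly all of the mRNA. Plat encodes tissue plasminogen activator, the protease that converts plasminogen to plasmin on fibrin (ENSMUSG00000031538, chr8:22757727-22782844, plus strand). Its level was 119, 123 and 132 CPM in control mice 1, 2 and 3 and 129, 193 and 187 CPM in SRF mice. SRF mice 2 and 3 lay far above the control mice, and SRF mouse 1 fell among them. The log2 fold change was 0.45 (SE 0.17, 95% interval 0.04 to 0.85), with an unadjusted p of 0.0348 and an adjusted p of 0.641 by edgeR (quasi-likelihood test, Benjamini-Hochberg). DESeq2 (Benjamini-Hochberg) gave an adjusted p of 0.438, so that Plat was called by neither tool. Without SRF mouse 1, DESeq2 (Benjamini-Hochberg) called it, at a log2 fold change of 0.61 and an adjusted p of 4.25e-04, and without SRF mouse 2 the value was 0.34. Among its 27 alternative fits, Plat was called only in the DESeq2 fit without SRF mouse 1, and the adjusted p over edgeR, DESeq2 and limma ranged from 4.25e-04 to 1. Between the photoreceptor-rich pair the log2 difference was 0.65, and in the other 4 libraries the log2 fold change was 0.33 (SE 0.19).

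Plau encodes urokinase, the activator that works on the cell surface when bound to its receptor (ENSMUSG00000021822, chr14:20836660-20843385, plus strand). Control mice had 3, 1 and 14 Plau counts and SRF mice 17, 11 and 23, too few for the filter, and control mice 1 and 2 were at or below the floor of 3 counts. All SRF mice had a higher CPM than all control mice (0.613 to 1.29 against 0.0543 to 0.584), and the values of control mouse 3 and SRF mouse 2 nearly met. Summed over each group, there were 18 counts in control mice and 51 in SRF mice, a ratio of 3.01 after scaling to the library totals, with a 95% interval of 1.73 to 5.48 that covers counting error only and not the spread between mice. In a fit of all listed genes without a filter, the adjusted p by edgeR (quasi-likelihood test, Benjamini-Hochberg) was 0.791.

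Plaur encodes the urokinase receptor (ENSMUSG00000046223, chr7:24462484-24475968, plus strand). Control mice 1, 2 and 3 gave 11.1, 15.5 and 18.5 CPM, and SRF mice gave 18.7, 17.6 and 14.9 CPM. The groups overlapped, with the lowest value in control mouse 1. The log2 fold change was 0.18 (SE 0.22, 95% interval -0.33 to 0.70), with an adjusted p of 0.996 by edgeR (quasi-likelihood test, Benjamini-Hochberg). It was 0.09 (SE 0.18) in the 4 libraries with little photoreceptor RNA, against a log2 difference of 0.43 in the other pair. Plaur mRNA was far more abundant than Plau mRNA in both groups, with FPKM ratios of Plaur to Plau of 65.8, 501 and 48.4 in control mice and 31.4, 44.3 and 16.9 in SRF mice. Protein levels in RPE-choroid are not part of these data. The study measured the receptor protein in medium of cultured bone marrow-derived macrophages, and reported more of it from SRF than from control mice. The FPKM ratios of control mice 1 and 2 rest on 3 and 1 Plau counts, with exact 95% counting intervals of 22.1 to 323 and 89.2 to 19857. The log2 ratio differed by -2.03 (exact permutation p of 0.1), and by -0.98 without control mouse 2.

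Serpine2 encodes protease nexin-1, a cell-bound serpin that inhibits thrombin, urokinase and tissue plasminogen activator (ENSMUSG00000026249, chr1:79794197-79861180, minus strand). Control mice 1, 2 and 3 had 764, 909 and 1062 CPM, and SRF mice had 1290, 1642 and 1424 CPM. Every SRF mouse lay above every control mouse. The means were 912 ± 149 and 1452 ± 178 CPM (SD, n = 3 each), a ratio of 1.59. By edgeR (quasi-likelihood test, Benjamini-Hochberg adjusted), the log2 fold change was 0.67 (SE 0.16, 95% interval 0.29 to 1.05), with an unadjusted p of 0.00419 and an adjusted p of 0.374. DESeq2 (Benjamini-Hochberg) gave 0.66 and an adjusted p of 0.0167. Like F3, the serpin was called by DESeq2 and not by edgeR. That call was lost without control mouse 1 (adjusted p of 0.0653), control mouse 2 (0.236) and SRF mouse 2 (0.435) by DESeq2 (Benjamini-Hochberg), while the log2 fold change stayed between 0.55 and 0.80 whichever mouse was left out. Over the 27 alternative fits by edgeR, DESeq2 or limma, its adjusted p ranged from 6.95e-05 to 1, and all 27 fold changes were above 0. The lowest value came from DESeq2 with the replicate number as a block, although the numbers do not pair the mice.

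In the 4 libraries with little photoreceptor RNA, Serpine2 had a log2 fold change of 0.57 and an adjusted p of 0.131 by edgeR (quasi-likelihood test, Benjamini-Hochberg), and the log2 difference of the other pair was 0.90. Plat was the member most like Serpine2 (r = 0.86 over 6 libraries) and F3 the most opposite (r = -0.84).

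Markers of macrophages, and on average those of fibroblasts, were higher in SRF mice, as Serpine2 was. Of 12 macrophage markers, 11 were higher in SRF mice, 8 at an unadjusted p under 0.05 by edgeR, with a median log2 fold change of 0.70 and summed levels of 1242 to 1622 CPM in control mice and 2881 to 4282 CPM in SRF mice. All 8 fibroblast markers were higher, 1 of them at an unadjusted p under 0.05 by edgeR and none called by edgeR or DESeq2, with a median of 0.54 and summed levels that overlapped, 4441 to 10394 CPM against 6883 to 11325 CPM. Defining genes of both cell types, such as Adgre1, Csf1r, Col1a1 and Pdgfra, were above 0 in every library. Relative to the equally weighted macrophage markers, log2 Serpine2 was 4.23 ± 0.07 in control mice and 4.27 ± 0.03 in SRF mice, and relative to the fibroblast markers it was 1.53 ± 0.24 and 1.71 ± 0.12 (SD, n = 3 each), with overlap in both. Per 1000 CPM of summed macrophage markers, Serpine2 was instead lower in all SRF mice (383 to 450) than in all control mice (561 to 655). Most of that sum was Lyz2, with 743 to 1004 CPM in control mice and 2078 to 3305 CPM in SRF mice. Lyz2 also had the highest log2 fold change of the 12 markers, 1.49, so the summed comparison rests largely on this gene. The part of these cell types in the Serpine2 result was not tested.

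Set against the serpin that inhibits it, the tissue activator overlapped between the groups. The FPKM ratio of Plat to Serpine2 was 0.135, 0.118 and 0.105 in control mice and 0.0869, 0.101 and 0.106 in SRF mice. SRF mouse 3 overlapped the control range. The log2 ratio differed by -0.28 (exact permutation p of 0.2, two-sided). The ratio of Plau to Serpine2 differed by 1.53 on the log2 scale with an exact permutation p of 0.2, and by 0.52 without control mouse 2, which has 1 Plau count.

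Anxa2 encodes annexin A2, which with S100a10 forms a surface complex that binds plasminogen and tissue plasminogen activator (ENSMUSG00000032231, chr9:69453620-69491795, plus strand). Its level was 343, 486 and 643 CPM in control mice 1, 2 and 3 and 489, 540 and 454 CPM in SRF mice. The SRF mice all fell inside the control range, which was the widest of the abundant members. The log2 fold change was 0.01 (SE 0.23, 95% interval -0.52 to 0.54), with an adjusted p of 1 by edgeR (quasi-likelihood test, Benjamini-Hochberg). In the 4 libraries with little photoreceptor RNA the value turned to -0.14, and between the photoreceptor-rich pair the log2 difference was 0.40. Its partner S100a10 had 84.9, 133 and 133 CPM in control mice and 133, 132 and 86.3 CPM in SRF mice, where the lowest value of each group came from the photoreceptor-rich library. Anxa2 shares exonic sequence with the antisense gene Gm16144, and the strandedness of the libraries is not given in the sources used here.

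The members spanned a wide range of levels per transcript length. In control mice, mean FPKM was 411 ± 71.7 for Serpine2, 334 ± 102 for Anxa2, 110 ± 5.8 for F3, 48.4 ± 2.58 for Plat, 24.9 ± 5.16 for Thbd, 17.1 ± 1.44 for Tfpi, 10.9 ± 1.27 for Procr, 9.79 ± 2.44 for Plaur and 0.127 ± 0.116 for Plau (SD, n = 3). The ranges of neighbours in this order overlapped for Serpine2 and Anxa2 and for Procr and Plaur, and were separate for the rest. In SRF mice the order of means was the same, with Serpine2 at 690 ± 91 and Anxa2 at 348 ± 34 FPKM now separate. F3 at 75.3 ± 8.46 and Plat at 68.2 ± 14.5 FPKM overlapped there, as did Thbd at 22.2 ± 3.08 and Tfpi at 18.5 ± 1.75, and Procr at 12.4 ± 2.68 and Plaur at 11.5 ± 1.36.

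**Figure D3:**
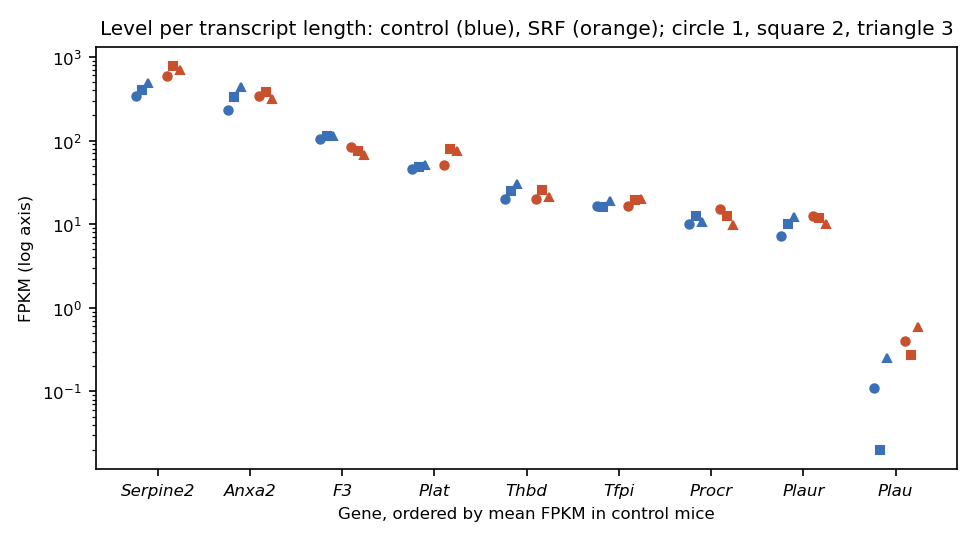
Deposited FPKM (log axis) of the 9 members in each control mouse (blue) and SRF mouse (orange), ordered by the control mean. Serpine2 and Anxa2 lead, Plau lies below 1 FPKM in every mouse, and F3 approaches Plat in SRF mice.

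Among the other tested genes of the pathway, few values stood out. The study reported complement and coagulation cascades among the pathways enriched in its changed genes. That category joins complement genes to those of coagulation, and its enrichment was not tested here. A list of 48 further genes covered coagulation factors, anticoagulants, thrombin receptors and fibrinolysis. Of them, 30 were among the genes with values, and 20 passed the filter. Of these 20, 16 log2 fold changes were above 0 and 4 below, against 6773 above and 6681 not above 0 over all tested genes. The median of the 20 was 0.04, against 0.00 over all genes, and the range was from -0.50 to 0.61. Of the 20, 1 had an unadjusted p under 0.05 by edgeR, against 7.01% of all genes. Neither edgeR's quasi-likelihood test nor DESeq2 called any of them. By class, the medians were 0.03 for 8 coagulation factors and their helpers, 0.13 for 6 anticoagulants, 0.03 for 5 genes of fibrinolysis and -0.06 for F2r, the one thrombin receptor tested. F10, F2rl1 and F2rl3 did not pass the filter and were not tested, and are named after their values were seen. Their CPM did not overlap between the groups, with SRF to control ratios of 3.1, 0.44 and 3.02, on at most 29 counts in any library. For the other listed genes under the filter the groups overlapped.

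The gene under that threshold was A2m, whose product, alpha-2-macroglobulin, traps proteases of many classes, thrombin and plasmin among them. It had 152, 250 and 248 CPM in control mice and 348, 341 and 304 CPM in SRF mice, without overlap. Its log2 fold change was 0.61 (SE 0.20), with an adjusted p of 0.559 by edgeR (quasi-likelihood test, Benjamini-Hochberg). Control mouse 1 lay well below the other mice, and without it the log2 fold change was 0.41. With the photoreceptor score as a covariate, DESeq2 (Benjamini-Hochberg) called A2m with an adjusted p of 0.0294, and the adjusted p over its 27 alternatives by edgeR, DESeq2 or limma ranged from this value to 1.

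The cofactor of activated protein C, protein S, is encoded by Pros1 and was measured at 173, 149 and 184 CPM in control mice and 123, 203 and 217 CPM in SRF mice. Vwf, the carrier of factor VIII and a ligand of platelets, had 92.7, 116 and 87.8 CPM in control mice and 126, 104 and 73 CPM in SRF mice. F13a1, the subunit that crosslinks fibrin once active, had 5.88, 12.3 and 13.7 CPM in control mice and 8.06, 16.6 and 13.6 CPM in SRF mice. The groups overlapped for all 3 genes. F2r, the main thrombin receptor of the vessel wall, lay at 54, 72.4 and 95.7 CPM in control mice and 60.1, 73.7 and 79.1 CPM in SRF mice, again with overlap.

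Tfpi2, a relative of Tfpi, gave control mice 8, 10 and 15 counts and SRF mice 10, 13 and 6. It did not pass the filter, and the groups overlapped. Plg, which encodes plasminogen itself, was not among the 15663 genes with values. Neither were the genes of fibrinogen (Fga, Fgb and Fgg), prothrombin (F2) and factor VII (F7), largely products of the liver. No level can be given for these genes.

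Markers of platelets and red cells overlapped between the groups. The summed level of 7 platelet markers was 29.2 to 37.2 CPM in control mice and 29.8 to 36.1 CPM in SRF mice, and that of 6 erythroid genes was 3193 to 4358 CPM against 2203 to 4506 CPM.

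**Figure D4:**
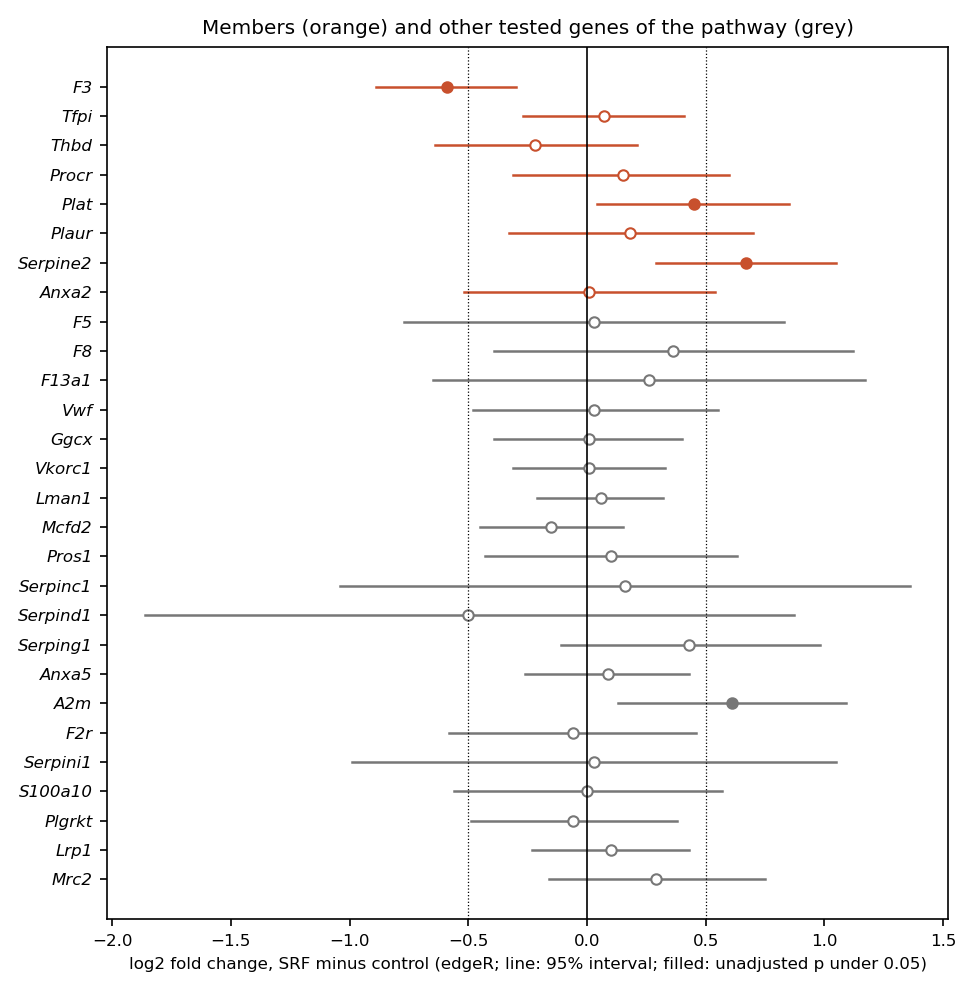
Log2 fold change between SRF and control mice (x axis) with its 95% interval from edgeR for the 8 tested members (orange) and 20 further tested genes of the pathway (grey), filled where the unadjusted p was under 0.05. The intervals of F3 (-0.89 to -0.30), Serpine2 (0.29 to 1.05), Plat (0.04 to 0.85) and A2m exclude 0, and the dotted lines mark 0.5 in either direction.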

How the data were processed

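RNA-seq counts and FPKM from RPE-choroid of 3 control and 3 SRF mice were analysed, grouped by their labels. The authors filtered reads with FASTP, counted reads per gene with StringTie, and deposited the counts as whole numbers without normalization. The authors also deposited FPKM, scaled by transcript length and mapped reads. The aligner, genome build and strandedness are not given in the sources used here. Gene positions were taken from GENCODE M21 (GRCm38), which holds 15659 of the 15663 gene identifiers, and 6 of 9 members had RefSeq promoter windows.

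Genes with over 50 counts in at least 2 samples were tested with edgeR 4.0.16 in R 4.3.3 (TMM, glmQLFit with legacy = TRUE, glmQLFTest), with group as the only term and Benjamini-Hochberg adjustment over 13454 genes. These thresholds are those of the study, whose DESeq2 (1.42.0 here) was an alternative, as was limma 3.58.1 on log2(FPKM + 0.1) and log2(FPKM + 1). Intervals used the degrees of freedom of the fit. The scripts were tested on simulated data. The standard error of a log2 fold change had a median of 0.19, which is not a limit above which changes were resolved. For Procr, with a standard error of 0.19, the interval ran from -0.31 to 0.60. After adjustment edgeR called none of the 13454 genes, so larger changes were not called either. Ratios and the exact permutation tests (two-sided) used single values per mouse, and correlations used log2(CPM + 0.5). Marker sums add CPM over a list.

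The members, the wider list and the marker lists were chosen with earlier results of these data known. The genes named were all members, the genes of the wider list with an unadjusted p under 0.05, further genes whatever their values (S100a10, Plg, F13a1, F2r, Pros1, Vwf, Tfpi2 and 1 that is not reported here) and the 5 genes most like F3. Fits on the 4 libraries with little photoreceptor RNA, the Plau values without a filter and the levels relative to markers were chosen after seeing the data. Mice of the same number are different animals, and their deviations from the group means correlated at -0.48, 0.49 and -0.30, so the numbers do not pair the mice.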

Additional observations from a re-analysis of the deposited data

How the results depend on the processing

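The direction and the approximate size of the F3 and Serpine2 differences held under all 27 alternative fits, while the calls depended on the tool. With no member called by edgeR, 2 members (F3 and Serpine2) were called by DESeq2 on the tested genes, on every listed gene, with the replicate block and with the photoreceptor score, at log2 fold changes of -0.60, -0.61, -0.60 and -0.62 for F3 and 0.66, 0.66, 0.67 and 0.66 for Serpine2. Over all genes these DESeq2 fits called 153, 153, 201 and 259. Against 0 in the main edgeR fit, edgeR called 1 gene with legacy = FALSE, upper quartile factors, library totals alone, no filter, filterByExpr or the photoreceptor score, both limma fits called 2, and edgeR on the 4 libraries with little photoreceptor RNA called 153. With the replicate block edgeR called 0 genes. DESeq2 with the photoreceptor score called 1 gene of the wider list, A2m (0.60).

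Leaving out single mice gave 0 to 5 genes called by edgeR (5 without control mouse 1) and 67 (without SRF mouse 2) to 343 (without SRF mouse 3) by DESeq2, with 0 to 3 members and 0 to 1 gene of the wider list (Serping1, without control mouse 3, named after its values were seen) by DESeq2 and none by edgeR. Log2 fold changes under either tool then ranged from -0.69 to -0.51 for F3, 0.55 to 0.80 for Serpine2, 0.34 to 0.61 for Plat, -0.37 to -0.06 for Thbd, -0.02 to 0.16 for Tfpi, -0.02 to 0.30 for Procr, -0.00 to 0.36 for Plaur, -0.20 to 0.25 for Anxa2, -0.19 to 0.19 for S100a10, -0.03 to 0.50 for F13a1, -0.25 to 0.17 for F2r, -0.06 to 0.32 for Pros1 and -0.16 to 0.23 for Vwf. The sign also turned in the 4 libraries with little photoreceptor RNA for Tfpi (-0.03), Anxa2 (-0.14), F13a1 (-0.08), Pros1 (-0.03) and S100a10 (-0.00). Anxa2 was -0.01 by DESeq2 on every listed gene. S100a10 was -0.00 by DESeq2 and with RLE factors, -0.01 by DESeq2 on every listed gene and -0.05 with the photoreceptor score under either tool. F2r was 0.02 under both limma fits, and Vwf was -0.04 with the photoreceptor score. The cause of these changes was not tested. Other scalings moved the median of all genes by at most 0.05. With 3 mice per group, an exact permutation test cannot go under 0.1.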
